A study of Mus musculus with 6 samples.

Results

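The mouse counterparts of the genes deleted in Williams-Beuren syndrome, with their neighbours on both flanks, are the subject here. The set comprises 35 genes listed by name as counterparts or neighbours of the deleted segment, with no expression value in the rule. Of these, 33 have a probe set with 1 gene symbol in the array's table, of 18193 genes represented in the same way, and they are measured by 80 of 45037 probe sets. Galnt17 and Por have no such probe set and were not analysed here. All 35 genes lie on mouse chromosome 5, and 32 of them are found among the 42 protein-coding genes from Rcc1l to Ywhag. Auts2, Galnt17 and Caln1 lie apart from that block. Where a gene has several probe sets, the brightest over the 6 arrays stands for it.

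The cells are mouse embryonic stem (ES) cells of the line EB3, cultured with LIF, that carry a 3xFLAG-tagged human GTF2IRD2 coding sequence at the ROSA26 locus under a promoter that tetracycline represses. Induced cultures had been without tetracycline for 24 hours, and uninduced cultures, time 0, were kept with it. Clones A3, A4 and A5 were each measured once in either state, so that each group holds 3 arrays. Each clone is 1 derived line, no array comes from a line without the transgene, and the effects of tetracycline withdrawal and of the human gene cannot be told apart. The human insert carries no UTRs and mouse probe sets need not detect it, so its induction is not measured here. In the paper's RT-PCR time course the transgene's level was higher at 24 hours than at time 0 in each of these clones. The paper's methods state that each gene's longest annotated coding sequence was used. The GTF2IRD2 insert printed in its supplement is nevertheless far shorter than those of the related GTF2I and GTF2IRD1. Whether the full-length factor is made is not known here.

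Williams-Beuren syndrome follows the loss of 1 copy of a gene-dense segment of human chromosome 7, and includes narrowing of the large arteries, a recognizable face and an unusual cognitive profile. Loss of ELN, which encodes elastin, accounts for the arterial disease in humans. The segment also holds the TFII-I family, GTF2I, GTF2IRD1 and GTF2IRD2, whose proteins share repeated helix-loop-helix-like domains and act as transcription factors. In GTF2IRD2 this family structure is fused to a domain derived from a transposable element. The remaining genes range from chromatin remodelling and ribosome assembly to tight junctions, vesicle fusion and mitochondrial metabolism.

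The promoters of the TFII-I family are shown first because those of Gtf2ird1 and Gtf2ird2 hold letters that members of this family are known to bind, while that of Gtf2i holds neither string. GTF2IRD1 is known to bind GGATTA and to occupy its own promoter, and TFII-I is known to bind E-boxes, of which CACGTG is one form. The windows cover 250 bases before the RefSeq start site (build GRCm38.p6), 5′ to 3′ on the strand of the gene. Capitals mark GGATTA on either strand, read as TAATCC where it lies on the opposite strand, and CACGTG, which is its own reverse complement. The Gtf2ird1 window lies at chr5:134456717-134456966 (minus strand), the Gtf2ird2 window at chr5:134183788-134184037 (plus strand) and the Gtf2i window at chr5:134314761-134315010 (minus strand).
Gtf2ird1: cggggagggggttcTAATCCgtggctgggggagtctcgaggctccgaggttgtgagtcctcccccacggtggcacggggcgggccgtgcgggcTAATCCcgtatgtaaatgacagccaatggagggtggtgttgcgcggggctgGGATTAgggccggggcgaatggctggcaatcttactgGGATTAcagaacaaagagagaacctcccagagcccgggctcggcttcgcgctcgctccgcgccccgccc
Gtf2ird2: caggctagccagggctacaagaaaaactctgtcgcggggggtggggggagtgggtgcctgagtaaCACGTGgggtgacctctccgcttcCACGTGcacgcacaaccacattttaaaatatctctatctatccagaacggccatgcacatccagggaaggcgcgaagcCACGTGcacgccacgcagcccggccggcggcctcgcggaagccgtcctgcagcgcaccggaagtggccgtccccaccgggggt
Gtf2i: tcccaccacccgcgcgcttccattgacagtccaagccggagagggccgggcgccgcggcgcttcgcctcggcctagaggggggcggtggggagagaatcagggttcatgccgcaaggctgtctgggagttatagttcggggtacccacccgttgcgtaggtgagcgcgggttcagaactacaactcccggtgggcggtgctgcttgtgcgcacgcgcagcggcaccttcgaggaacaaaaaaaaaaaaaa

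Gtf2ird1 held 4 copies of GGATTA in these 250 bases, beginning 236, 157, 106 and 69 bases before the start, the first 2 on the opposite strand. Of all 32851 windows in the table, its own included, 2 held as many. Gtf2ird2 held 3 copies of CACGTG, beginning 185, 161 and 83 bases before the start, as many as were found in 20 of all windows. Over the 300-base windows, which run 50 bases further, GGATTA was found in 3 of the 29 genes with a window, Gtf2ird1, Abhd11 and Styxl1, against 7.06% of all windows. CACGTG was found in 5 of the 29, Gtf2ird2, Eif4h, Bcl7b, Fzd9 and Mlxipl, against 7.15% of all windows. These counts are by gene, and the 29 genes have 35 windows, whereas the shares are by window. The median ratio of observed to expected CG pairs was 0.85 for genes above background and 0.78 for those not. Over all windows it was 0.38. CACGTG contains CG, and the part of base composition in its counts was not tested. Of the other strings searched on both strands, GGGATTA, which contains GGATTA, was found in Gtf2ird1 alone (2.25% of all windows) and GATTGG in 5 genes (16.1%). CATGTG (14.2%), TATAAA (13.6%) and GATTAAA (3.27%) were found in none of the 29. A match is a description of the letters, not of a bound site.

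Most of the region was expressed in ES cells. A gene was counted as above background on an array when its signal exceeded the 95th percentile of 48 genes restricted to differentiated organs, a limit of 6.23 to 6.28 on the log2 scale. By this measure 23 of 33 genes (69.7%) were above background on all 6 arrays, against 46.9% of all genes. Gtf2ird2 passed on 5 arrays and 9 genes passed on none. With other limits the number on all 6 arrays lay between 20, against 39.4% of all genes, and 27, against 62.9%. The genes below background were Caln1, which encodes a neuronal calcium-binding protein, Ncf1 and Lat2 of the blood lineages, Clip2, Eln, Vps37d, Mlxipl, the Wnt receptor gene Fzd9 and Styxl1. Eln, Fzd9, Vps37d and Gtf2ird2 passed a fixed value of 5 on every array, and Auts2, Cldn3 and Stx1a did not pass the brightest of the 48 genes. A signal below the limit does not show that a transcript is absent, and levels of different probe sets cannot be ranked against each other.

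**Figure D1:**
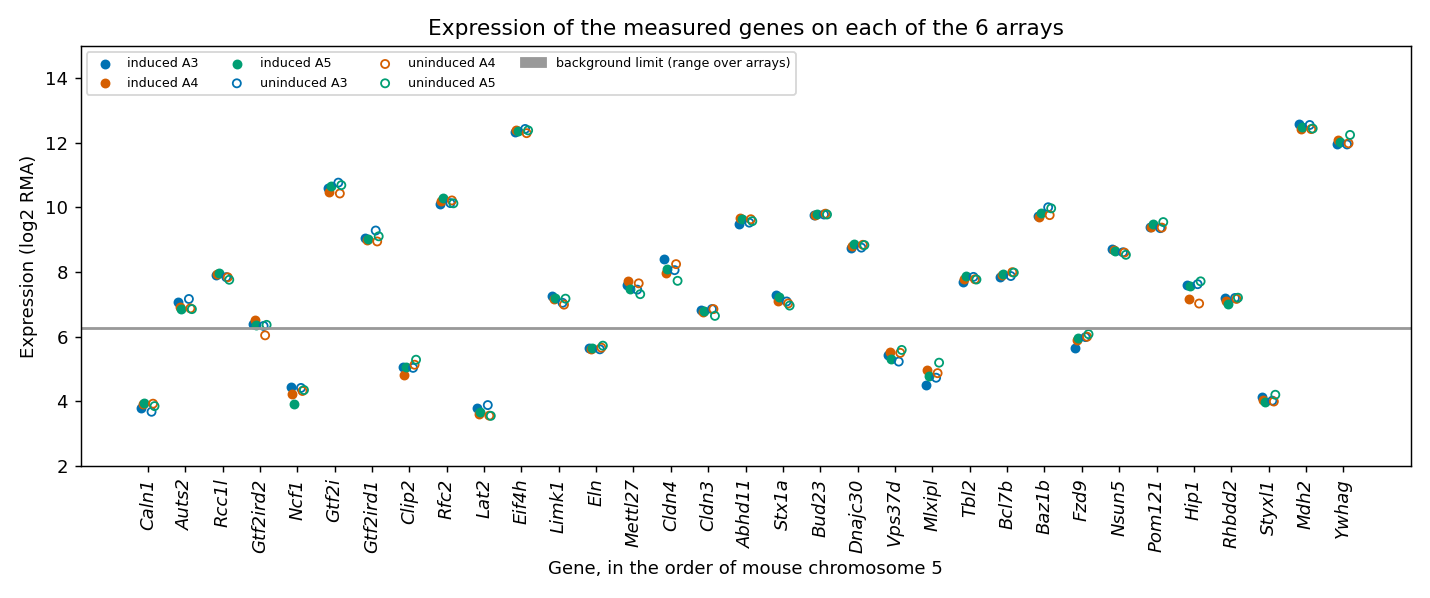
Expression (log2 RMA, y axis) of the 33 measured genes in the order of chromosome 5 (x axis), with filled points for induced and open points for uninduced arrays, colored by clone, and a gray band for the background limit on each array (6.23 to 6.28). The 23 genes above background on all arrays lie above the band, and Gtf2ird2 lies close to it on both sides.

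Induction of GTF2IRD2 was not accompanied by a difference past the threshold in any of these genes. With limma (Benjamini-Hochberg adjusted p under 0.05 over all probe sets), 0 of 33 genes and 0 of their 80 probe sets passed, as did 0% of all probe sets. At an unadjusted p under 0.05 there was 1 gene, Stx1a, against 2.36% of all genes. With the clone as a block 0 passed after adjustment and 2, Stx1a and Fzd9, before it, against 4.7% of all genes. With the methods' t-test 0 passed after adjustment and 3, Stx1a, Rcc1l and Nsun5, before it, against 3.43% of all genes. Differences lay between -0.19 and 0.18 (log2, induced minus uninduced), that is 0.877 to 1.13-fold. The median difference was -0.01, and the medians of clones A3, A4 and A5 were -0.01, 0.03 and -0.01. Over all genes the median was -0.00278. Values were higher in all 3 clones for 6 genes (12.9% of all genes) and lower in all 3 for 4 genes (13.3%), and had mixed signs for 23.

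The arrays set bounds on what could have been missed. The 95% interval of the difference lay within 1.25-fold in either direction for 23 of 33 genes (69.7%), against 72.7% of all genes, and within 1.5-fold for 33 of 33. The widest bound was 1.43-fold, in Mlxipl. These bounds are for the brightest probe set of each gene, in the fit without the clone, whose error includes the spread between clones. With the clone as a block the SE of Mlxipl was 0.10 against 0.14, and that of Eif4h 0.074 against 0.070. Over all 80 probe sets 78 stayed within 1.5-fold, and the exceptions, 1 each of Ywhag and Hip1, reached 1.53-fold and just past 1.5-fold. The bounds do not cover compression of ratios on the array, and for the 9 genes below background they limit the signal and not the transcript.

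**Figure D2:**
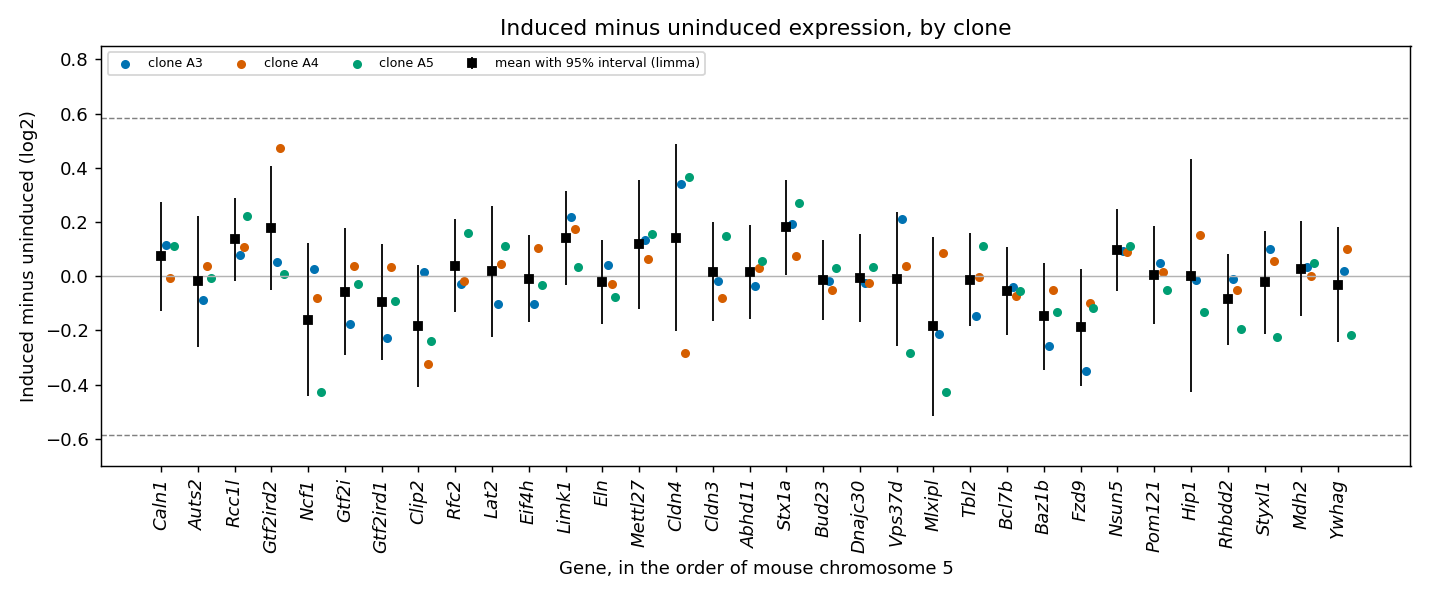
Induced minus uninduced expression (log2, y axis) of the 33 measured genes in the order of chromosome 5 (x axis), with 1 colored point per clone and a black square with bar for the mean and its 95% interval from limma; dashed lines mark 1.5-fold. Means lie between -0.19 and 0.18 and every interval stays inside the dashed lines.

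The TFII-I family was examined first, as the human gene belongs to it. Gtf2ird2, the mouse counterpart of the transgene, had 6.38, 6.51 and 6.37 in induced A3, A4 and A5, against 6.33, 6.04 and 6.36 in the same clones uninduced (log2). The groups did not overlap, although induced and uninduced A5 were nearly equal, and the uninduced A4 array stood below the rest. Its difference of 0.18 ± 0.10 (SE, adjusted p = 1 in limma) was made mostly of the 0.47 of clone A4, as A3 and A5 differed by 0.05 and 0.01. Gtf2i, the gene of TFII-I, had 10.59, 10.47 and 10.66 in induced cultures and 10.77, 10.43 and 10.69 in uninduced ones. Its A4 arrays were the lowest in both groups, and the groups overlapped. The other 3 probe sets of Gtf2i differed by 0.05, 0.15 and 0.01, so that the sign was not shared. Gtf2ird1, which carries the GGATTA copies, had 9.06, 8.98 and 9.01 in induced cultures and 9.29, 8.95 and 9.11 in uninduced ones. The uninduced A3 array was the highest, and the difference was -0.10 ± 0.09 (SE, n = 3 each); its other probe set differed by -0.08. Without the uninduced A3 array the difference was -0.00983, and without the uninduced A4 array -0.18.

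**Figure D3:**
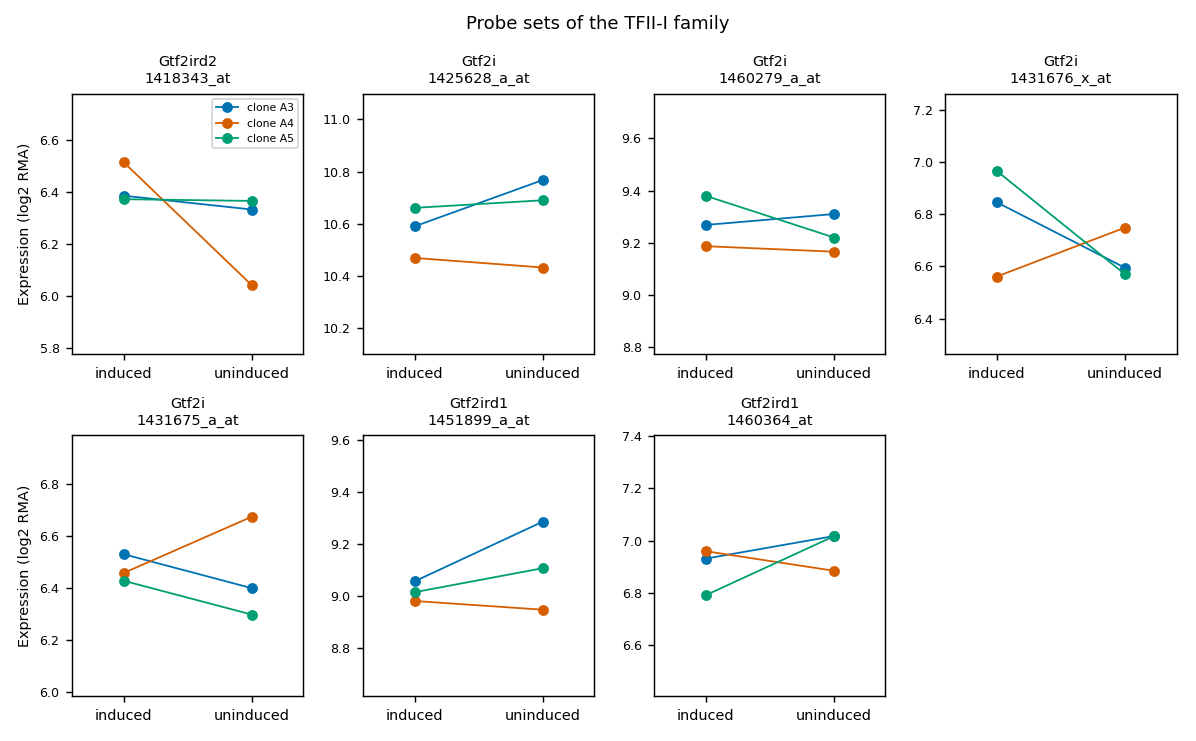
Expression (log2 RMA, y axis, each panel spanning 1 unit) at the 7 probe sets of Gtf2ird2, Gtf2i and Gtf2ird1, induced at left and uninduced at right, with a line joining the arrays of a clone. Lines cross in most panels, and the steepest line of Gtf2ird2 is that of clone A4 (6.51 induced, 6.04 uninduced).

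Baz1b, Bcl7b and Mlxipl, genes of chromatin and gene control, were listed together with Tbl2, and 0 of 4 were higher on average. Of all 18193 genes 9374 were lower, and Tbl2 differed by -0.01 ± 0.07 (SE). Baz1b encodes the WSTF subunit of chromatin remodelling complexes, and had 9.75, 9.71 and 9.84 in induced cultures against 10.01, 9.76 and 9.97 in uninduced ones. It was lower in all 3 clones, by 0.26, 0.05 and 0.13, but the induced A5 array exceeded the uninduced A4 array, and the difference of -0.15 ± 0.09 (SE) had an adjusted p of 1 in limma. Its other 4 probe sets differed by -0.10 to 0.00. Bcl7b, a subunit of the BAF complex, had 7.84, 7.92 and 7.93 in induced cultures and 7.88, 8.0 and 7.98 in uninduced ones. Its values were lower by 0.04 to 0.07 in each clone, within the spread between clones. Mlxipl, which encodes the glucose-responsive factor ChREBP, was below background throughout.

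The genes of RNA processing and translation were above background on every array. Eif4h, the mouse counterpart of the WBSCR1 gene also studied by these authors, encodes a helper of the initiation factor eIF4A. It had 12.33, 12.41 and 12.35 in induced cultures and 12.43, 12.30 and 12.39 in uninduced ones. The groups interleaved, and the difference was -0.01 ± 0.07 (SE). Bud23, which encodes the methyltransferase of the small ribosomal subunit, had 9.76, 9.76 and 9.81 in induced cultures and 9.78, 9.81 and 9.78 in uninduced ones. This was a range of 0.0556 over 6 arrays, the narrowest of the 33 genes, whose detected members had a median range of 0.211 against 0.245 for all detected genes.

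Rcc1l, which encodes a mitochondrial protein needed for fusion and for ribosome assembly in that organelle, had 7.92, 7.95 and 7.98 in induced cultures and 7.84, 7.84 and 7.76 in uninduced ones. All induced arrays exceeded all uninduced ones, and the difference was 0.14 ± 0.07 (SE, adjusted p = 1 in limma). Nsun5, an rRNA cytosine methyltransferase gene named here because its groups did not overlap, had 8.70, 8.69 and 8.64 in induced cultures and 8.61, 8.60 and 8.53 in uninduced ones. Its difference of 0.10 ± 0.07 (SE) was nearly equal in the 3 clones, at 0.09, 0.09 and 0.11. At the other probe set of Nsun5, also above background on all arrays, A3, A4 and A5 differed by -0.05, 0.30 and 0.33, and the groups overlapped. Induced arrays were all above uninduced ones in 4 genes, Rcc1l, Nsun5, Stx1a and Gtf2ird2 (3.16% of all genes), and all below in 1, Fzd9 (4.07% of all genes).

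Stx1a had the smallest p of the 33 in limma, but not in the methods' t-test, where those of Rcc1l and Nsun5 were smaller. It encodes syntaxin-1A, a membrane protein of the SNARE machinery that drives vesicle fusion in neurons. The values were 7.28, 7.10 and 7.23 in induced cultures and 7.09, 7.03 and 6.96 in uninduced ones. The lowest induced array, A4, stood just above the highest uninduced one, A3, and the groups did not overlap. The difference was 0.18 ± 0.08 (SE, 1.13-fold, unadjusted p = 0.0463 and adjusted p = 1 in limma). The suffix of this probe set marks possible cross-hybridization, as it does for those that stand for Eif4h, Ywhag and Lat2. The other probe set of Stx1a, below background, differed by -0.06.

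Limk1 encodes a kinase that inactivates the actin-severing protein cofilin. It had 7.26, 7.17 and 7.21 in induced cultures and 7.05, 6.99 and 7.18 in uninduced ones. The uninduced A5 array lay among the induced arrays, and the difference was 0.14 ± 0.08 (SE), while its other probe sets differed by -0.07 and -0.05. Mettl27, a gene of the methyltransferase-like family, had 7.59, 7.71 and 7.47 in induced cultures and 7.46, 7.65 and 7.31 in uninduced ones. Its clones kept the order A4, A3, A5 in both groups and the groups overlapped, with a difference of 0.12 ± 0.10 (SE). Without the uninduced A5 array it was 0.04, and without the uninduced A4 array 0.21. Rhbdd2, a rhomboid-like gene of the flank, had 7.19, 7.12 and 7.01 in induced cultures and 7.20, 7.17 and 7.20 in uninduced ones. Its A5 difference, -0.20, was the largest in size, and the induced A3 array lay within the uninduced group.

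**Figure D4:**
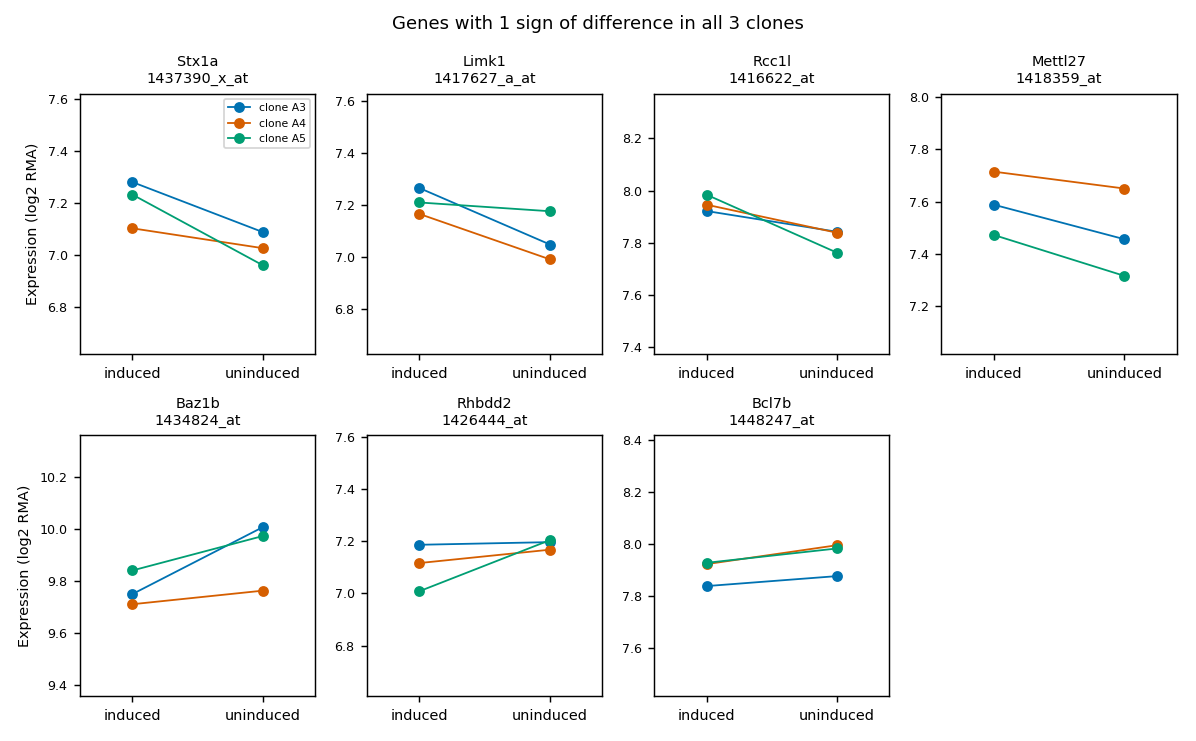
Expression (log2 RMA, y axis, each panel spanning 1 unit) of the 7 detected genes chosen for 1 sign of difference in all 3 clones, induced at left and uninduced at right, with a line joining the arrays of a clone. Stx1a, Limk1, Rcc1l and Mettl27 were higher and Baz1b, Rhbdd2 and Bcl7b lower in each induced clone, with clone differences between -0.26 and 0.27.

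The choice of probe set mattered for the sign. Of the 20 genes with several probe sets, 3 had 1 sign over all of them. These were Gtf2ird1, Mdh2 and Nsun5. The probe sets of Nsun5 differed by 0.10 and 0.20 and those of Mdh2 by 0.03 and 0.00.

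Mdh2 and Styxl1 start head to head from overlapping promoter windows. Mdh2 encodes the mitochondrial malate dehydrogenase of the citric acid cycle and had 12.59, 12.43 and 12.49 in induced cultures and 12.55, 12.43 and 12.44 in uninduced ones. Styxl1, which encodes a catalytically inactive phosphatase, starts next to it on the opposite strand and had 4.12, 4.05 and 3.98 in induced cultures and 4.02, 3.99 and 4.20 in uninduced ones. The signal of Mdh2 was above the background limit and that of the single Styxl1 probe set below it on every array, and these signals are not compared with each other. The windows of the pair share 237 bases. The window of Mdh2 lies at chr5:135778399-135778648 (plus strand), and capitals mark TCGCGA, its own reverse complement and searched for after the sequence had been seen.
Mdh2: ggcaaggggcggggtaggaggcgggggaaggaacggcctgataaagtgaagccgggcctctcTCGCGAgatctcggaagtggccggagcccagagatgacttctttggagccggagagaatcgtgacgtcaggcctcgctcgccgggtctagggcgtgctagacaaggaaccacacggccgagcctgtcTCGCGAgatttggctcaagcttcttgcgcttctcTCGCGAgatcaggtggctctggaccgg
It held 3 copies, beginning 188, 61 and 27 bases before the start, as many as 6 of all windows. TCGCGA was found in Mdh2 and Styxl1 of the 29 genes, against 2.5% of all windows. It also contains CG, and the part of base composition in these counts was not tested. A window of Styxl1 holds the same 3 copies, read from the opposite strand, so these genes are not separate occurrences.

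A difference between clones passed the threshold in 1 of 33 genes. Before adjustment 5 had a p under 0.05 in limma's moderated F-test, Hip1, Mettl27, Auts2, Mlxipl and Lat2, the last 2 of them below background. The share over all genes was not computed for this count, so it is not read as a result about these genes. With so few arrays per clone, genes that did not pass are not shown to be equal between clones. Hip1 encodes a clathrin- and actin-binding protein of endocytosis, and was the single gene past the threshold of limma's moderated F-test for the clone (adjusted p = 0.0392), as were 2.18% of all probe sets. Hip1 had 7.61, 7.18 and 7.58 in induced A3, A4 and A5 and 7.62, 7.03 and 7.71 in the same clones uninduced. Clone A4 was lowest in both states. The call was lost without 1 of 5 arrays, those of A3 and A4 in either state or the uninduced A5 array (adjusted p = 0.0593 to 0.259), and after a second quantile normalization (0.0539). It was not seen at the other 4 probe sets of Hip1 (adjusted p = 0.285 to 0.879). Among uninduced arrays the next brightest was also lowest in A4, at 6.45, against 7.16 and 7.20 in A3 and A5. Among induced arrays A4 was not the lowest there, at 6.99 against 7.28 in A3 and 6.96 in A5.

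**Figure D5:**
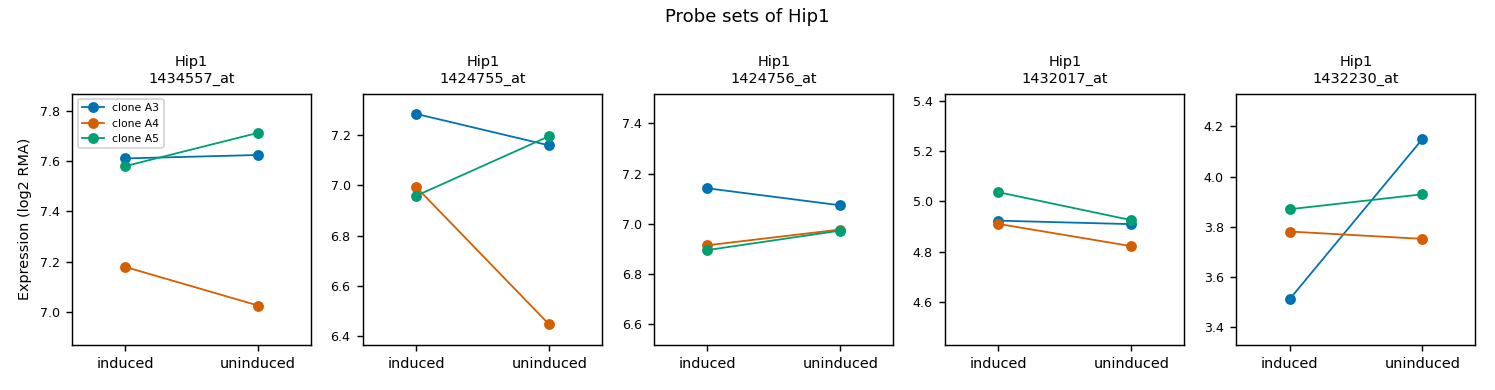
Expression (log2 RMA, y axis, each panel spanning 1 unit) at the 5 probe sets of Hip1, induced at left and uninduced at right, with a line joining the arrays of a clone. Clone A4 is lowest in both states at the brightest probe set (7.18 induced, 7.03 uninduced), which is not repeated at every other probe set.

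Cldn4 had the next widest range of clone means among detected genes, 0.32. It encodes a claudin of epithelial tight junctions and had 8.40, 7.96 and 8.10 in induced cultures and 8.06, 8.24 and 7.73 in uninduced ones. Its induction differences opposed each other, with 0.34 and 0.37 in A3 and A5 but -0.28 in A4, and the clone term did not pass (adjusted p = 0.533 in limma). Taken over the 33 genes, the median of a clone minus the other clones was 0.02, -0.01 and 0.04 for A3, A4 and A5. Over all genes it was -0.01, 0.00 and 0.01.

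Genes that work with these were examined as 16 lists of 120 genes, of which 108 were measured. Above background on all arrays were 88, against 46.9% of all genes. In limma 0 of 108 passed, as did 0% of all probe sets. On average 49 were higher and 59 lower, against 8819 and 9374 of all 18193 genes, and the median difference was -0.01. At an unadjusted p under 0.05 there was 1 gene, against 2.36% of all genes. That gene was Cyp51, a sterol demethylase that receives electrons from the reductase encoded by Por, with 7.81, 7.99 and 7.83 in induced cultures and 7.53, 7.78 and 7.56 in uninduced ones. All induced arrays were above all uninduced ones, as in 3.16% of all genes, with a difference of 0.25 ± 0.09 (SE, adjusted p = 1). All 5 nuclear pore partners of Pom121 were lower on average, and 0 of them passed. Their differences ran from -0.15 ± 0.13 (SE) in Nup98 to -0.01 ± 0.07 (SE) in Ndc1. No other of the 16 lists had 1 sign throughout. Of the elastic fibre partners of Eln 1 of 5 was above background on all arrays, Ltbp4, and of the NADPH oxidase partners of Ncf1 1 of 4, Cyba. In the rRNA methylation list 8 of 8 were above it, and in the clamp loader list of Rfc2 7 of 7. Between clones 1 of the 108 passed, against 2.18% of all probe sets. This was the cyclin gene Ccnd3 (adjusted p = 0.0436 in limma's moderated F-test), whose means for A3, A4 and A5 were 10.60, 11.01 and 11.18.

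The 6 arrays had medians of 5.03 to 5.06 and correlated with each other across probe sets at 0.996 to 0.998. All 10 ES cell markers were above background on every array. Of the markers of other cells, 0 of 6 for primitive endoderm, 0 of 4 for mesoderm, 0 of 7 for fibroblasts, 2 of 5 for trophoblast and 2 of 5 for neural cells were above it on all arrays. Between clones 1 of the 10 ES cell markers (Fgf4), 1 of the 6 primitive endoderm markers (Dab2, below background) and 2 of the 5 trophoblast markers (Eomes and Tfap2c) passed the threshold. Of all probe sets 2.18% passed it. The clone means of Tfap2c were 8.32, 9.42 and 9.10 in A3, A4 and A5, and those of Fgf4 were 10.16, 9.65 and 9.69. Their part in the clone differences of Hip1 and Ccnd3 was not tested. Signals of the poly-A spike-in controls, added to the RNA before labeling, were higher by 0.29, 0.08 and 0.44 in induced A3, A4 and A5, and their part in the differences above was not tested.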

How the data were processed

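Total RNA of 6 cultures had been hybridized to Affymetrix Mouse Genome 430 2.0 arrays, 1 per culture. The authors computed the deposited log2 values by robust multiarray average (RMA: background correction, quantile normalization and summarization per probe set) in the affy package of Bioconductor, with versions not given in the sources used here. Of 45101 probe sets, 64 controls were set aside and 45037 tested without an intensity filter. The array's table gave 1 symbol for 34945, several for 932 and none for 9160.

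The 3 induced arrays were set against the 3 uninduced ones in limma 3.58.1 in R 4.3.3 (lmFit, eBayes, two-sided, unpaired, since the methods name a t-test and no pairing), and clones with a moderated F-test in a model of clone and induction. p-values were adjusted over all 45037 probe sets, with a threshold of 0.05, and cover no more than the spread of these cultures of 3 clones. Same-numbered arrays are the same clone in GEO's labels, and their deviations correlated at 0.524, 0.376 and 0.210, against -0.407 to 0.0689 between clones. The clone as replicate block was therefore an alternative, as were the methods' t-test, re-normalization, other background limits and leaving out arrays or clones. The scripts were tested on simulated data. The number of arrays limits the precision.

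The genes and lists were chosen with earlier results of these data known. Named were the TFII-I family and Eif4h, up to 4 detected genes with the highest and 4 with the lowest difference among those with 1 sign in all clones, genes past the clone test with those of the widest clone range, and up to 4 genes per partner list. Sequences are RefSeq's, build GRCm38.p6, for 29 of the 35 genes, and gene order is from the RefSeq gene table of the same build. The array files carry no coordinates.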

Additional observations from a re-analysis of the deposited data

How the results depend on the processing

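On induction 0 of the 33 genes, 0 of the partner genes and 0 of all probe sets passed the threshold under any alternative. The replicate block changed no call. At an unadjusted p under 0.05 it gave 2 of the 33 genes and 2597 probe sets, against 1 and 1404 without it. The count of genes past the threshold between clones was 0 after a second quantile normalization and 0 to 1 when single arrays or clones were left out. Hip1 remained with centring, an intensity trend or a mean of at least 5. Without clone A3 or A4 its adjusted p was 0.270 and 0.939, and without A5 it was 0.0266. The median of A3 minus the other clones was 0.0377 after centring, 0.00786 after a second quantile normalization, -0.0170 with the mean of all probe sets of a gene, and -0.00831 to 0.0287 with 1 array left out. For A4 it was -0.0294 to -0.00740 and for A5 0.0286 to 0.0377 with 1 array left out, and 0.0265 for A5 with the mean of all probe sets. The differences of 3 named genes changed sign, in Eif4h after centring (0.00337) and in Hip1 after a second quantile normalization (-0.00598). With arrays or clones left out they ran over -0.156 to 0.0122 in Gtf2i, -0.0675 to 0.0359 in Eif4h and -0.212 to 0.141 in Hip1. Differences of the other named genes kept their sign, and with arrays or clones left out ran over 0.03 to 0.26 in Gtf2ird2, -0.18 to -0.00983 in Gtf2ird1, 0.04 to 0.21 in Mettl27, 0.000411 to 0.35 in Cldn4 and -0.22 to -0.09 in Baz1b. The causes were not tested. Signals near background limit what can be said of the 9 genes below it.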
